A study of Homo sapiens with 3 samples.

Results

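The miR-17-92 cluster consists of 6 microRNA (miRNA) hairpins, hsa-mir-17, hsa-mir-18a, hsa-mir-19a, hsa-mir-20a, hsa-mir-19b-1 and hsa-mir-92a-1 (written without the species prefix from here on), which are carried by 1 long non-coding primary transcript, MIR17HG. Its members were taken by the name of the hairpin, with both arms of each, which gave 12 mature miRNAs among the 2590 mature names of the table. The mature sequences of miR-19b-3p and miR-92a-3p are also encoded by mir-19b-2 and mir-92a-2 in a paralogous cluster on the X chromosome, and the counts assigned to those hairpins were added. All 12 mature miRNAs had a count in at least 1 library. The arm of each hairpin with more counts in the control library is called the guide arm and the other the passenger arm, which gave 6 of each. Averaged over the libraries, 11 of the 12 reached 10 counts, and these are among the 514 endogenous miRNAs for which ratios were calculated. The remaining member, miR-19a-5p, had 0, 1 and 3 counts and received no ratio.

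The study introduced a miRNA that HEK293 cells lack and asked how gene expression responded, and the small RNA libraries profiled the miRNAs of the resulting lines. Small RNA was sequenced from Flp-In T-REx 293, a HEK293 (human embryonic kidney) derivative carrying the Tet repressor and an integration site for Flp recombinase. The control line carried an empty lentiviral vector. The miR-1 and miR-122 lines carried the same vector with a hairpin for that miRNA, placed in an intron of a GFP gene that doxycycline switches on. Every line, the control included, was selected with Geneticin (1 mg/mL, 6 days) and then treated with doxycycline (1 ug/mL, 7 days), and 1000 ng of total RNA entered each library. Each group was 1 library from a transduced culture, so differences between lines had no replicate check and no test between conditions was possible. The intervals given throughout are 95% intervals for counting error only.

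A miRNA cluster of this kind is transcribed as a single primary RNA, from which Drosha excises each hairpin and Dicer cuts out a duplex. Argonaute then retains the guide strand, whose seed (bases 2 to 8) pairs with target mRNAs, and the passenger strand is mostly degraded. The cluster is activated by MYC and E2F factors, is amplified in some lymphomas and lung cancers, and is expressed in most proliferating cells. Its miRNAs repress the pro-apoptotic BIM gene BCL2L11, the cell cycle inhibitor CDKN1A (miR-17 and miR-20a) and other brakes on cell growth, and loss of the locus impairs lung, heart and skeletal development.

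The 6 hairpins occupy chr13:91350605-91351391 on the plus strand of GRCh38.p14, a span of 787 nt. In the GENCODE v44lift37 annotation of GRCh37, where the same sequences lie at chr13:92002859-92003645, the cluster falls within an exon in 3 of the 16 annotated MIR17HG transcripts, within an intron in 8 and within neither in the remaining 5. In transcript order, mir-18a begins 62 nt after mir-17, mir-19a 69 nt after mir-18a, mir-20a 92 nt after mir-19a, mir-19b-1 56 nt after mir-20a and mir-92a-1 35 nt after mir-19b-1. The mature sequences below are from RefSeq (GRCh38.p14, plus strand of chromosome 13) and are written 5′ to 3′ with the seed in capitals. They are shown because guide arms that share a seed can pair with the same sites, and the 6 guide arms fall into 4 seed groups. The guide arms are given first, ordered by seed.
miR-17-5p: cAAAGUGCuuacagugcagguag
miR-20a-5p: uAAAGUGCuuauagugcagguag
miR-18a-5p: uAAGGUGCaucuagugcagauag
miR-19a-3p: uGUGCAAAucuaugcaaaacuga
miR-19b-3p: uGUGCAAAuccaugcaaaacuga
miR-92a-3p: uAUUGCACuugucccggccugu

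The passenger arms were as follows.
miR-17-3p: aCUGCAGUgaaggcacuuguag
miR-20a-3p: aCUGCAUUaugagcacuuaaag
miR-18a-3p: aCUGCCCUaagugcuccuucugg
miR-19a-5p: aGUUUUGCauaguugcacuaca
miR-19b-1-5p: aGUUUUGCagguuugcauccagc
miR-92a-1-5p: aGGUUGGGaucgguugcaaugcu

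The guide arm is the 5p arm in mir-17, mir-18a and mir-20a and the 3p arm in mir-19a, mir-19b-1 and mir-92a-1. Counted from 1 at the 5′ end, with the base of the first-named miRNA written first, miR-17-5p and miR-20a-5p differ by C1U and C12U, both outside the seed. The guides miR-19a-3p and miR-19b-3p differ only by U11C. The guide miR-18a-5p differs from miR-17-5p at 6 positions, of which A4G lies in the seed, so its seed AAGGUGC is 1 base away from AAAGUGC. All 6 passenger arms begin with A, and 5 of the 6 guide arms begin with U, the exception being miR-17-5p.

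The total count was 1636834 for control, 2892684 for miR-1 and 2577292 for miR-122, of which 1636481, 1791702 and 1947669 counts belonged to endogenous miRNAs. The induced miRNAs followed the labels, with 166, 1100840 and 369 counts of miR-1-3p and 10, 10 and 627576 counts of miR-122-5p in the same order. Levels below are scaled CPM, the counts of a miRNA per 1000000 endogenous miRNA counts after scaling of the libraries, in which 1 count was worth 0.547 to 0.611 and a count of 0 allows a level of up to 1.64 to 1.83 (3 counts). The table held miRNAs only, so the cell type could be examined only through them: 5 blood cell miRNAs summed to 11 to 17 counts and 5 miRNAs of pluripotent cells to 3 to 9 counts. Of 3 miRNAs linked to endothelium and smooth muscle, miR-126-3p alone was abundant, with 5319, 6314 and 7533 counts.

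The cluster was a major part of the miRNA population in all lines. Its 12 mature miRNAs together had 207999.5 counts in control, 218270.5 in miR-1 and 222446.5 in miR-122 cells. These were 12.7% (95% Wilson interval 12.66% to 12.76%), 12.2% (12.13% to 12.23%) and 11.4% (11.38% to 11.47%) of the endogenous counts. The share was thus highest in the control and lowest in the miR-122 library, and none of the 3 intervals overlapped. On the scaled counts the log2 ratio of the summed cluster was −0.02 (95% interval −0.03 to −0.01) for miR-1 to control and −0.06 (−0.07 to −0.05) for miR-122 to control. These summed differences were small, and the sign of the first turned positive (log2 0.01) when the scale was set on miRNAs averaging 100 counts or more. The most abundant endogenous miRNA, miR-10a-5p, had 210754, 245299 and 287733 counts. Its share of endogenous counts was close to that of the whole cluster in control cells only, at 12.9% against 12.7%. It exceeded the cluster's share in miR-1 cells (13.7% against 12.2%) and more so in miR-122 cells (14.8% against 11.4%).

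The members spanned levels from the third most abundant miRNA of the library to single counts. The highest was miR-92a-3p, the last member of the transcript and a repressor of integrin subunit alpha 5 in endothelium. It had 104530, 109913 and 131541 counts in control, miR-1 and miR-122 libraries, equal to levels of 63875, 62966 and 71994 scaled CPM, and it ranked 3 among endogenous miRNAs in every library. Its scaled level was highest in the miR-122 library and the counting intervals of all 3 libraries were apart. These intervals do not cover the choice of scaling. Among scalings based on endogenous miRNAs, the log2 ratio of miR-1 to control ran from −0.058 to 0.016. With the induced miRNAs in the total, that of miR-122 to control was −0.32.

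The cell cycle regulator miR-20a-5p had 65565, 70024 and 61335 counts, or levels of 40065, 40115 and 33569 scaled CPM. Its seed partner miR-17-5p had 28302, 28185 and 23212.5 counts, or levels of 17294, 16146 and 12704. Both were lowest in the miR-122 library. The control and miR-1 levels overlapped in their intervals for miR-20a-5p and were apart for miR-17-5p.

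The other guide arms were several-fold lower. The guide miR-18a-5p, which is known to repress the estrogen receptor gene ESR1, had 3552.5, 3852.5 and 2132 counts, or levels of 2171, 2207 and 1167. The miR-19 pair followed, with levels of 2116, 1997 and 1218 for miR-19b-3p (3462, 3486 and 2226 counts) and 1020, 1056 and 563 for miR-19a-3p (1669, 1844 and 1029 counts). For each of these 3 guides the miR-122 library was the lowest and its interval lay apart from the other 2 libraries, whose intervals overlapped.

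In order of level, miR-92a-3p was followed by miR-20a-5p, miR-17-5p, the pair of miR-18a-5p and miR-19b-3p, and miR-19a-3p in every library. The neighbours miR-18a-5p and miR-19b-3p were not separable by their counting intervals in the control and miR-122 libraries, in the second of which they changed places, whereas all other neighbouring guides were apart. The highest guide, whose counts include those assigned to mir-92a-2, stood 62.6-fold, 59.6-fold and 128-fold above the lowest in control, miR-1 and miR-122 libraries. The mature sequences are 22 or 23 nt long, and levels were not corrected for length. Ligation and amplification can favour some sequences over others, and their part in the differences between miRNAs was not tested.

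**Figure D1:**
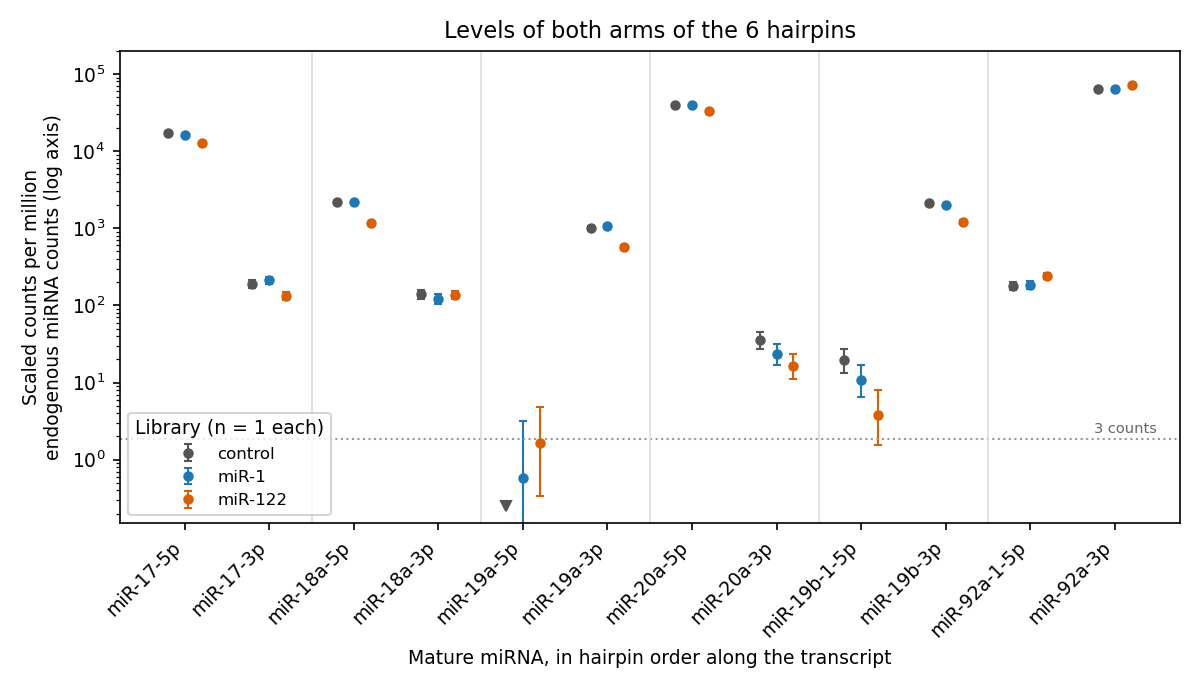
Level of each mature miRNA of the cluster in the 3 libraries (y axis, scaled CPM of endogenous miRNA counts, log scale; x axis, both arms in hairpin order), with points for 1 library each and bars for 95% exact Poisson counting intervals; the triangle marks miR-19a-5p, at 0 counts in the control library, and the dotted line shows the level of 3 counts in that library. The lowest guide level is 563 (miR-19a-3p, miR-122 library) and the highest passenger level is 242 (miR-92a-1-5p, miR-122 library), and miR-92a-3p is the highest member throughout.

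The passenger arms reached 0.442%, 0.443% and 0.437% of the cluster's counts in control, miR-1 and miR-122 libraries. The highest were miR-17-3p with 310, 370 and 241 counts, miR-92a-1-5p with 292, 323 and 442 counts, and miR-18a-3p with 227, 212 and 248 counts. The rest were rare. The counts were 58, 41 and 30 for miR-20a-3p and 32, 19 and 7 for miR-19b-1-5p. The level of miR-17-3p stood first among passenger arms in the control and miR-1 libraries, where its interval overlapped that of miR-92a-1-5p, and miR-92a-1-5p stood first in the miR-122 library, apart from the others.

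Arm use differed strongly between the hairpins. The passenger arm took 6.01% (95% Wilson interval 5.29% to 6.81%) of the counts of mir-18a in the control library and 1.08% (0.970% to 1.21%) of those of mir-17. It took 0.916% (0.650% to 1.29%) for mir-19b-1, 0.279% (0.248% to 0.312%) for mir-92a-1 and 0.0884% (0.0684% to 0.114%) for mir-20a. For mir-19b-1 and mir-92a-1 these guide counts include the second hairpin of the same mature sequence. Over the counts of the listed hairpin alone the shares were 1.83% (1.30% to 2.58%) and 0.539% (0.481% to 0.604%), and mir-19b-1 then stood above mir-17. For mir-19a the passenger arm had 0 of 1669 counts, a share of up to 0.230% by the same interval. In mir-17 and mir-20a, whose guides are nearly identical, the control library thus held 91.3 and 1130 guide counts for each passenger count.

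The mir-18a hairpin, which had the highest passenger share, is shown here in full (RefSeq, GRCh38.p14, chr13:91350751-91350821, plus strand) with the arms in capitals, miR-18a-5p first, beside mir-20a (chr13:91351065-91351135), which is of the same length and had the lowest passenger share among hairpins with passenger counts in all libraries.
mir-18a: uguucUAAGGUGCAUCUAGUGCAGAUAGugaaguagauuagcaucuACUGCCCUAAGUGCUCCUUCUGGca
mir-20a: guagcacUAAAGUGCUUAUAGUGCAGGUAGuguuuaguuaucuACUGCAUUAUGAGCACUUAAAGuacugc

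The minimum free energy predicted by RNAfold was −21.1 kcal/mol for mir-18a (71 nt) and −31 kcal/mol for mir-20a. The other 4 hairpins, of 78 to 87 nt, had values from −33.8 to −38.7 kcal/mol. Per nucleotide, mir-18a was the weakest of the 6, at −0.30 kcal/mol, against −0.40 to −0.47 for the others. The value of mir-20a, −0.44, lay inside that range and was not the strongest. A link between folding energy and arm use was not tested.

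Between libraries, the passenger share of mir-18a also spanned the widest range of percentage points. It was 5.22% (4.57% to 5.94%) in the miR-1 library and 10.4% (9.26% to 11.7%) in the miR-122 library. The control and miR-1 intervals overlapped, and the miR-122 share lay above both. There were 15.6, 18.2 and 8.60 guide counts for each passenger count in control, miR-1 and miR-122 libraries. The count of miR-18a-3p itself was nearly level over the libraries, and that of miR-18a-5p was lower in the miR-122 library. For mir-17 the share was 1.30% in the miR-1 and 1.03% in the miR-122 library, and for mir-92a-1 it was 0.293% and 0.335%. All intervals of mir-92a-1 overlapped one another, and for mir-17 only those of the miR-1 and miR-122 libraries were apart. For mir-20a and mir-19b-1 the passenger share was lowest in the miR-122 library, at 0.0489% (0.0342% to 0.0698%) and 0.313% (0.152% to 0.646%), which overlapped the control for mir-20a and ended just below it for mir-19b-1. Over the listed hairpin alone, mir-19b-1 had 0.634% (0.307% to 1.30%) in the miR-122 library, which met the interval of the control. For mir-19a the passenger arm had at most 3 counts in any library.

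**Figure D2:**
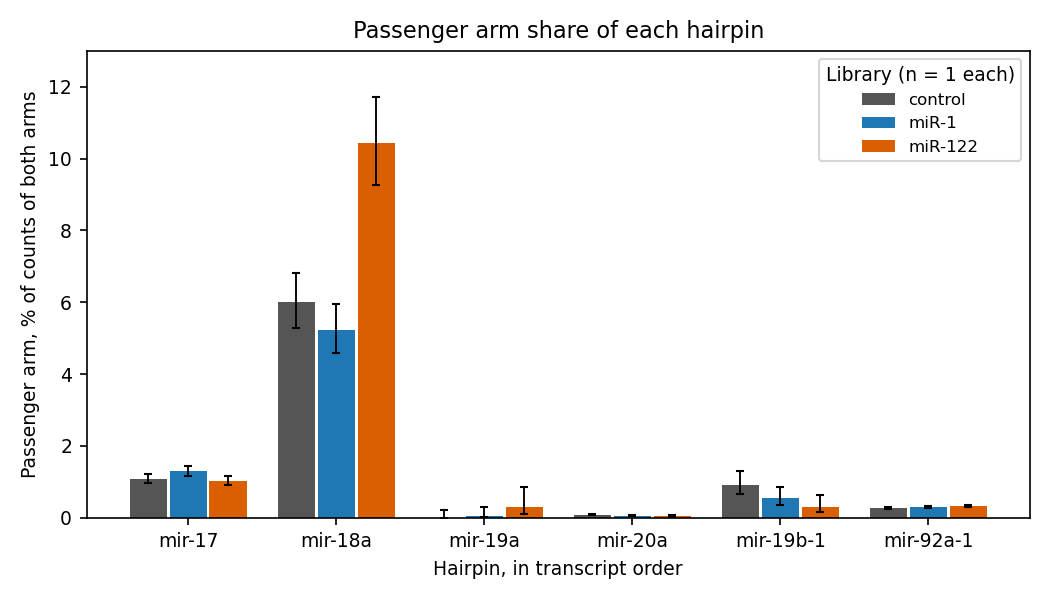
Passenger arm share of the counts of both arms (y axis, %) for each hairpin in transcript order (x axis), with 1 bar per library and 95% Wilson intervals; for mir-19b-1 and mir-92a-1 the guide counts include those assigned to the second hairpin of the same mature sequence. The bars of mir-18a rise above all others in every library, at 6.01%, 5.22% and 10.4%.

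Of the cluster's guides, miR-92a-3p and miR-19b-3p cannot be assigned to 1 locus. The authors' counting gave mir-92a-1 51.5%, 51.8% and 51.6% of the miR-92a-3p counts in control, miR-1 and miR-122 libraries, and mir-19b-1 49.5%, 49.4% and 49.3% of those of miR-19b-3p. That counting divides a read among the hairpins that contain it, so these splits do not tell the loci apart. The opposite arms differ in sequence between the hairpins and were counted separately. Of the opposite arms, miR-92a-1-5p had 292, 323 and 442 counts and miR-92a-2-5p 1, 3 and 4, so that 99.7%, 99.1% and 99.1% came from the miR-17-92 hairpin. The arm miR-19b-1-5p had 32, 19 and 7 counts and miR-19b-2-5p had 0 in every library. These arms show which hairpins left a passenger strand, and they do not measure how many guide molecules came from each.

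The first comparison asked how the cluster differed between the miR-1 line and the control. Its guide arms were at nearly the same level in both. The log2 ratio of miR-1 to control was −0.10 (95% interval −0.12 to −0.08) for miR-17-5p and −0.08 (−0.15 to −0.01) for miR-19b-3p. It was 0.05 (−0.05 to 0.15) for miR-19a-3p. The ratios of miR-18a-5p (log2 0.02), miR-20a-5p (0.00) and miR-92a-3p (−0.02) changed sign among scalings based on endogenous miRNAs, so no direction is given for them. The median log2 ratio was −0.01 over the 6 guides and −0.00 over the 514 endogenous miRNAs.

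With a 1.5-fold difference as the limit, 0 of the 11 members lay above it in miR-1 to control and 2 lay below it, against 7.39% of all endogenous miRNAs above and 9.34% below. Both members below it were rare passenger arms, miR-20a-3p (log2 −0.59, −1.21 to 0.01) and miR-19b-1-5p (log2 −0.83, −1.75 to 0.02), and both intervals included 0. None of the 11 reached 2-fold in either direction, against 3.31% of all. The passenger arms miR-17-3p, miR-18a-3p and miR-92a-1-5p had log2 ratios of 0.16, −0.19 and 0.05 with intervals that also included 0.

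The second comparison set the miR-122 line against the same control library. Here 5 of the 6 guides were lower and miR-92a-3p was higher. The log2 ratio of miR-122 to control was −0.90 (−0.97 to −0.82) for miR-18a-5p, −0.86 (−0.97 to −0.74) for miR-19a-3p and −0.80 (−0.87 to −0.72) for miR-19b-3p, which are differences of 1.86-fold, 1.81-fold and 1.74-fold. It was −0.44 (−0.47 to −0.42) for miR-17-5p and −0.26 (−0.27 to −0.24) for miR-20a-5p. The ratio of miR-92a-3p was 0.17 (0.16 to 0.18), a 1.13-fold higher level. Its direction held over the scalings based on endogenous miRNAs, at log2 0.08 to 0.19, and turned to −0.32 when the induced miRNAs were counted in the library total. That scaling placed the median over the 514 endogenous miRNAs at −0.53 in this comparison and at −0.73 in miR-1 to control. Relative to the median of all, miR-92a-3p stayed between 0.20 and 0.33 higher under the scalings and filters tried. By construction another scaling of the same miRNAs cannot change this difference, so only the filters could move it.

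The median log2 ratio of the guides was −0.62 in miR-122 to control, against −0.04 for all 514 endogenous miRNAs, of which 240 lay above 0 and 274 below. At 1.5-fold, 0 of the 11 members lay above the limit and 5 below it, against 11.3% and 15.8% of all endogenous miRNAs. At 2-fold there were 2 of 11, against 9.73% of all, both of them passenger arms with at most 58 counts in a library. Members are not independent samples here, since all were read from the same 2 libraries and share a primary transcript, in full or, for miR-92a-3p and miR-19b-3p, in part. The 5 lower members were the guides miR-18a-5p, miR-19a-3p and miR-19b-3p and the passenger arms miR-20a-3p (log2 −1.10, −1.80 to −0.45) and miR-19b-1-5p (log2 −2.27, −3.78 to −1.15), the last resting on 7 counts in the miR-122 library. Among the better counted passenger arms, miR-17-3p was lower (log2 −0.52, −0.77 to −0.27) and miR-92a-1-5p higher (0.44, 0.22 to 0.66), while miR-18a-3p was at −0.03 (−0.30 to 0.23). As for miR-92a-3p, the sign of miR-92a-1-5p held over the endogenous scalings (log2 0.35 to 0.46) and was −0.06 with the induced miRNAs in the total.

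Within a hairpin, the arms could therefore be read side by side. Both arms of mir-17, mir-20a and mir-19b-1 were lower in the miR-122 library and both arms of mir-92a-1 were higher. The passenger arms of mir-20a and mir-19b-1 were rare. The guide counts of mir-19b-1 and mir-92a-1 include those assigned to the second hairpin. For mir-18a the guide was lower and the passenger was not separable from the control. Along the transcript the guide ratios did not run in 1 direction, since the weakly lowered miR-20a-5p lies between miR-19a-3p and miR-19b-3p.

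**Figure D3:**
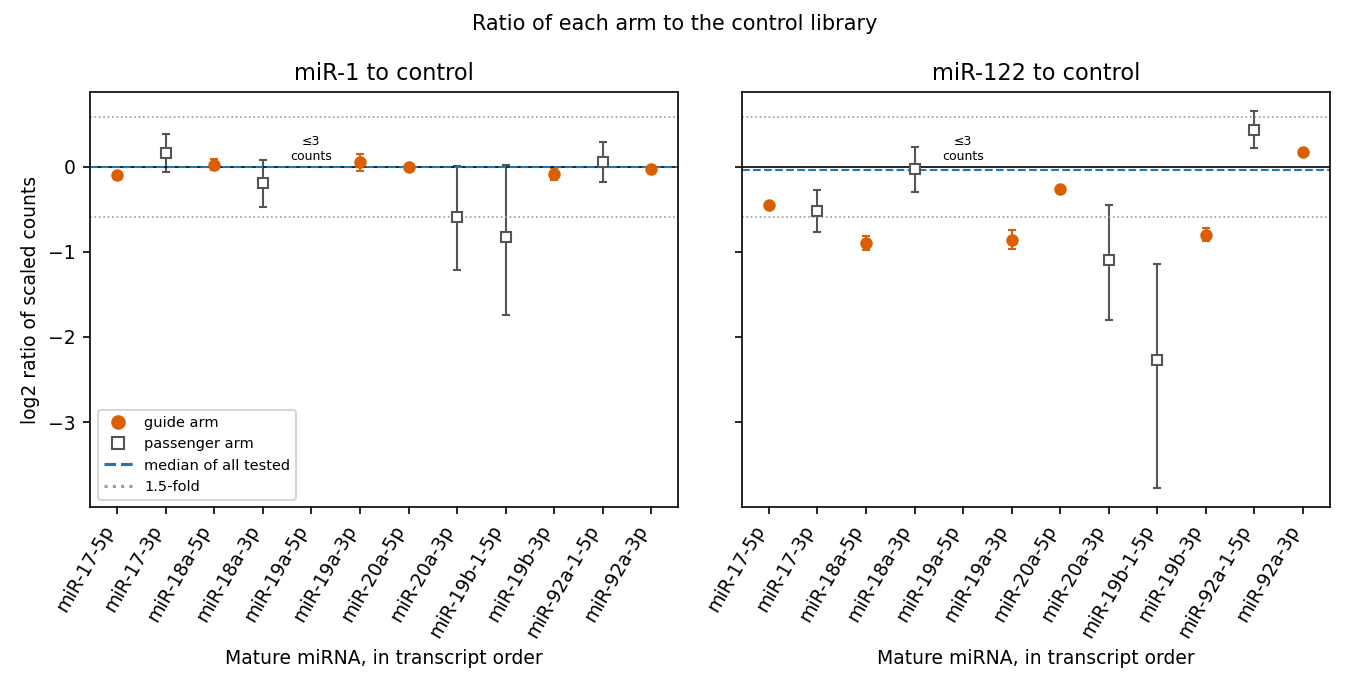
Log2 ratio of scaled counts to the control library (y axis) for the arms in transcript order (x axis), miR-1 on the left and miR-122 on the right, with 95% counting intervals; filled circles are guide arms, open squares passenger arms, the dashed line is the median of all 514 endogenous miRNAs tested and the dotted lines mark 1.5-fold. On the left the guides lie within 0.10 of 0, and on the right miR-18a-5p, miR-19a-3p and miR-19b-3p lie beyond the lower line while miR-92a-3p lies above 0.

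Ratios of one member to another within a library do not depend on how libraries are scaled. There were 1.59 counts of miR-92a-3p (95% interval 1.58 to 1.61) for each count of miR-20a-5p in the control, 1.57 (1.55 to 1.58) in the miR-1 and 2.14 (2.12 to 2.17) in the miR-122 library. Relative to miR-18a-5p, miR-92a-3p stood at 29.4, 28.5 and 61.7. The miR-122 library thus differed from both others, whose intervals overlapped for miR-18a-5p and also for miR-19a-3p (62.6, 59.6 and 128) and miR-19b-3p (30.2, 31.5 and 59.1). Between seed partners the ratios differed far less. The ratio of miR-20a-5p to miR-17-5p was 2.32, 2.48 and 2.64, and that of miR-19b-3p to miR-19a-3p was 2.07, 1.89 and 2.16, with the control interval of the latter overlapping that of each other library.

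As shares of all guide counts, miR-92a-3p made up 50.5%, 50.6% and 59.4% in control, miR-1 and miR-122 libraries. The guide miR-20a-5p made up 31.7%, 32.2% and 27.7%, and miR-17-5p 13.7%, 12.97% and 10.5%. The remaining shares were 1.72%, 1.77% and 0.963% for miR-18a-5p, 1.67%, 1.60% and 1.01% for miR-19b-3p, and 0.806%, 0.849% and 0.465% for miR-19a-3p. The small log2 ratio of the summed cluster in miR-122 to control therefore combined a higher miR-92a-3p with lower values of the rest. Without miR-92a-3p the summed ratio was −0.35 in place of −0.06.

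The third comparison, of the miR-1 to the miR-122 library, uses libraries already compared with the control and is given for completeness. At 1.5-fold, 5 of the 11 members were higher in the miR-1 library and 0 lower, against 14% and 9.14% of all endogenous miRNAs, and 1 of 11 passed 2-fold, against 8.56%. The members higher in the miR-1 library were miR-18a-5p (log2 0.92, 0.84 to 1.00), miR-19a-3p (0.91, 0.80 to 1.02), miR-19b-3p (0.71, 0.64 to 0.79), miR-17-3p (0.68, 0.45 to 0.92) and the rare miR-19b-1-5p (1.44, from 19 and 7 counts). The median over the guides was 0.53, against 0.01 over all. The guide miR-92a-3p was lower in the miR-1 library, at −0.19 (−0.20 to −0.18).

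**Figure D4:**
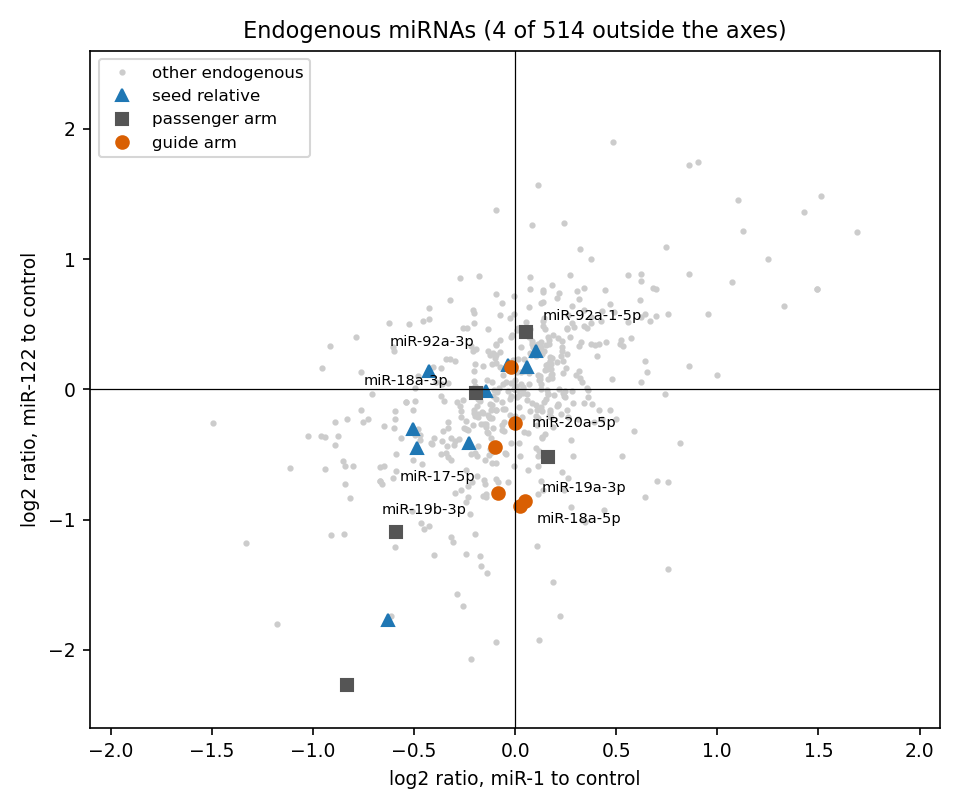
Log2 ratio of miR-1 to control (x axis) and of miR-122 to control (y axis) for the 514 endogenous miRNAs, 1 point each, of which 4 lie outside the axes; both ratios share the control library. The guide arms (circles) line up near 0 on the x axis and spread from −0.90 to 0.17 on the y axis, with miR-92a-3p uppermost among them.

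The seeds printed above define families that reach beyond the cluster, and the cluster's part in each family differed. Members of the paralogous miR-106b-25 and miR-106a-363 clusters, among them miR-93-5p, miR-106b-5p, miR-25-3p and miR-363-3p, carry the same seeds. For AAAGUGC, the seed of miR-17-5p and miR-20a-5p, the cluster gave 65.6%, 67.7% and 61.6% of the family's counts in control, miR-1 and miR-122 libraries. For AUUGCAC, the seed of miR-92a-3p, it gave 65.1%, 63.7% and 63.5%, with the counts assigned to mir-92a-2 included. The seed AAGGUGC of miR-18a-5p came to 99.2%, 99.5% and 99.6% from the cluster. The miR-19 seed, GUGCAAA, was found in no other miRNA with a matched sequence. Families hold only miRNAs whose sequence was matched, which was so for 452 of the 514 tested, and the rest were not searched.

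Summed over whole families, miR-122 to control was lower for 3 seeds and higher for 1. The log2 ratio of the family was −0.90 (−0.98 to −0.82) for AAGGUGC, −0.82 (−0.88 to −0.75) for GUGCAAA, −0.22 (−0.23 to −0.21) for AAAGUGC and 0.21 (0.20 to 0.22) for AUUGCAC. In miR-1 to control the same sums lay between −0.07 and 0.02. The family sums in the miR-122 library thus spanned more than a log2 unit. Those of AAGGUGC and GUGCAAA rest almost wholly on the cluster's own counts. For AAAGUGC the log2 ratio was −0.31 over the cluster members and −0.06 over the relatives, and for AUUGCAC it was 0.17 and 0.28.

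Relatives outside the cluster were set beside the members of the same seed. Of the AUUGCAC relatives, miR-25-3p had 47625, 54495 and 65232 counts, and its log2 ratio of miR-122 to control was 0.29 (0.28 to 0.31). The ratios of miR-92b-3p, miR-32-5p and miR-363-3p were 0.19, 0.17 and 0.14, with intervals above 0, and miR-367-3p had 0 counts in every library. The 5 detected miRNAs of this seed, miR-92a-3p included, were thus all higher in the miR-122 library on the scaled counts. Counting the induced miRNAs in the total lowers every ratio by the same amount, as given for miR-92a-3p. Of the AAAGUGC relatives, miR-93-5p was at −0.01 (−0.03 to 0.01), while miR-106b-5p, miR-106a-5p and miR-20b-5p were at −0.41, −0.45 and −0.31. The AAGGUGC relative miR-18b-5p had 28.5, 19.5 and 9 counts, and its log2 ratio of −1.77 had an interval from −3.06 to −0.67.

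In miR-1 to control the 9 relatives with a ratio had a median of −0.23. The log2 ratio was −0.51 for miR-20b-5p, −0.48 for miR-106a-5p and −0.42 for miR-363-3p, which belong to the miR-106a-363 cluster, and −0.23 for miR-106b-5p, −0.14 for miR-93-5p and 0.10 for miR-25-3p of the miR-106b-25 cluster. It was −0.04 (−0.12 to 0.05) for miR-92b-3p and 0.06 (−0.01 to 0.13) for miR-32-5p, and −0.63 (−1.48 to 0.30) for the rare miR-18b-5p. The comparison shares its control library with that of miR-122. Some of these counts overlap between near-identical sequences: miR-106a-5p differs from miR-17-5p by C1A alone (miR-17-5p first), and miR-18b-5p from miR-18a-5p by A20U. The counts of miR-17-5p and miR-106a-5p held a fraction in the same library, miR-122, and those of miR-18a-5p and miR-18b-5p in the control and miR-1 libraries. A share of reads of these pairs could therefore not be told apart, and the rarer partner of each pair is the more uncertain.

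Base composition and abundance were set beside the miR-122 ratios. The G+C content of the guides was 34.8% for miR-19a-3p, 39.1% for miR-19b-3p and miR-20a-5p, and 43.5% for miR-18a-5p. It was 47.8% for miR-17-5p and 54.5% for miR-92a-3p. The highest ratio went with the highest G+C, but the lowest ratio, −0.90 for miR-18a-5p, did not go with the lowest. At the same G+C, miR-19b-3p was at −0.80 and miR-20a-5p at −0.26. Of the AUUGCAC relatives, miR-32-5p (31.8% G+C) was at 0.17 and miR-92b-3p (63.6%) at 0.19. Over the 452 of 514 endogenous miRNAs with a matched sequence (87.9%), the median log2 ratio of miR-122 to control was −0.25 below 40% G+C (104 miRNAs), −0.04 from 40% to 50% (129), 0.08 from 50% to 60% (138) and 0.06 above (81). Across these miRNAs, which share the same libraries, the correlation of G+C with the ratio was r = 0.11 and rho = 0.19, and over the 235 of them averaging 100 counts or more, the range that holds all guides, r = 0.13 and rho = 0.30. The part of base composition in the cluster's ratios was not tested. By abundance, the medians were −0.05, −0.09, 0.01 and 0.07 for mean counts of 10 to 100, 100 to 1000, 1000 to 10000 and above, with r = 0.04 over 514 miRNAs.

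**Figure D5:**
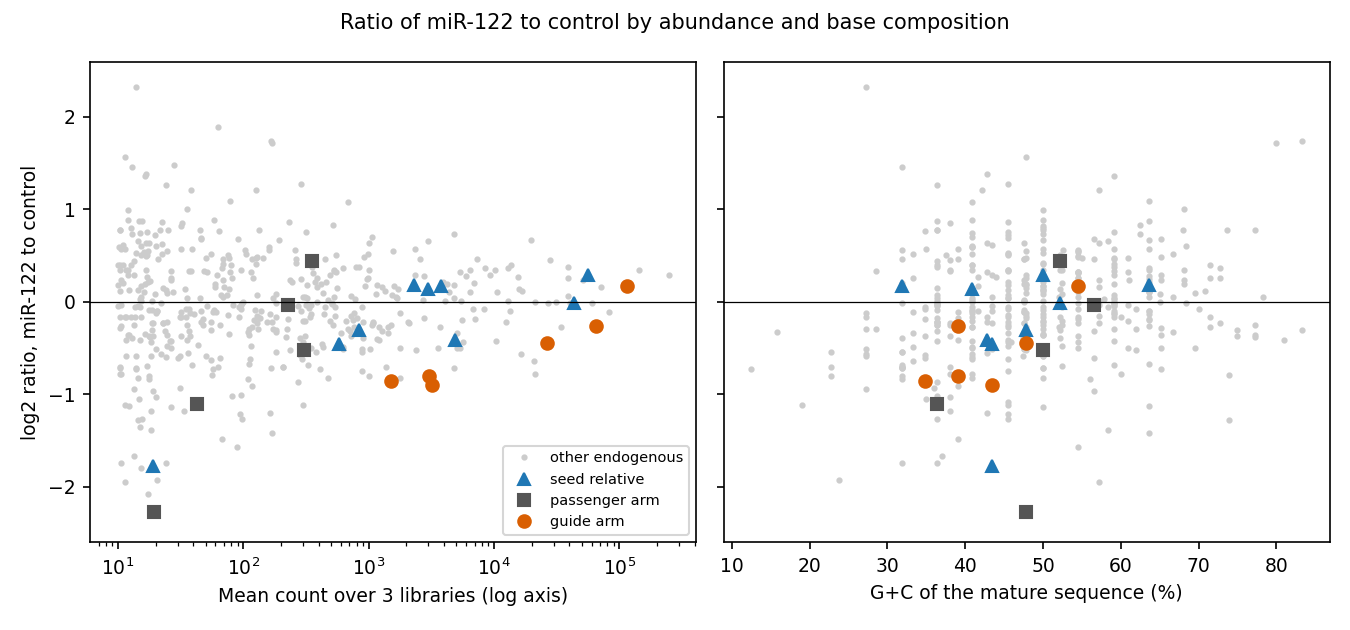
Log2 ratio of miR-122 to control (y axis) against the mean count over the 3 libraries (left, log scale) and the G+C content of the mature sequence (right, %), 1 point per endogenous miRNA, with guide arms, passenger arms and seed relatives marked; 3 points on the left and 2 on the right lie outside the axes. The guides miR-18a-5p, miR-19a-3p and miR-19b-3p lie in the lower part of both plots, between −0.80 and −0.90, and miR-92a-3p lies among the abundant miRNAs above 0.

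Finally, the 246 endogenous miRNAs outside these lists that averaged 100 counts or more were ranked by how near their pair of ratios to the control lay to the pair of medians of the 6 guides (Euclidean distance in log2 units over both comparisons). The nearest was miR-16-1-3p, the passenger arm of a hairpin on the same chromosome, at a distance of 0.07 with 120, 134 and 87 counts. It was followed by miR-374b-5p at 0.09, with 5297.5, 5515 and 3618 counts, and miR-107 at 0.11, with 2507, 2725 and 1959 counts. All were lowest in the miR-122 library, which follows from ranking by nearness to the guide medians. The guide median in miR-122 to control, −0.62, lies between miR-19b-3p (−0.80) and miR-17-5p (−0.44) and is the value of no single guide. Likeness over 3 libraries is a weak criterion.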

How the data were processed

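Small RNA libraries had been made by the study with the NEBNext small RNA kit from total RNA, 1 per line. The authors removed adapters, discarded reads under 18 nt and quantified them with miRDeep2 against the hairpins of miRBase release 21, extended by their synthetic hairpins. The miRDeep2 version is not given in the sources used here, and the hg19 build named in the submitters' processing notes was not needed for counting on hairpins. The values used here were deposited as estimated counts for each pair of mature miRNA and hairpin, and reads that fit several hairpins were divided among them, so fractions occur. RPM values, which count the induced miRNAs in the total, were also deposited by the authors and set no value given here. A deposited pooled total over more than these libraries was not used.

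Estimated counts were summed by mature name and used unrounded for levels and shares. The 5 synthetic hairpins were set apart and all other names treated as endogenous. The endogenous set therefore includes miR-3591-5p, with a mean count of 586 and a log2 ratio of 10.03 in miR-122 to control. Whether its counts came from the induced hairpin was not tested. Of 1351 endogenous miRNAs with any count, the 514 with a mean count of at least 10 were used to scale the libraries by TMM (edgeR 4.0.16, R 4.3.3). Log2 ratios used a pseudocount of 0.5 counts. Levels carry exact Poisson intervals, ratios exact (Clopper-Pearson) intervals of rounded counts given the scaled sizes, and shares Wilson intervals (scipy 1.17.1). The reads carried no molecular identifiers. Called means past 1.5-fold, with 2-fold as an alternative, since 1 library per group allows no test.

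Sequences were taken from RefSeq tables (GRCh38.p14), in which all 12 members and 452 of the 514 miRNAs were found. Each hairpin was located in GRCh37 by its sequence. Folding energies were computed with RNAfold 2.7.2. The steps were tested on simulated data. Alternatives changed the scaling (DESeq2 1.42.0 size factors, totals), the count filter, the pseudocount, the hairpins summed and the fold limit.

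All 12 members, a list of 10 seed relatives, the opposite arms of the second hairpins, the induced miRNAs, miR-10a-5p and the 3 nearest patterns are named. The members and lists were chosen with earlier results of these data known.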

Additional observations from a re-analysis of the deposited data

How the results depend on the processing

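No paired analysis was possible because there was only 1 library per line, and no replicate could be left out. Of 123 alternative values for 42 results, 77 were classed as kept, 44 as moved and 2 as reversed. Kept meant a value within the counting interval of the main setting, or a count within 1.5 times. The guide medians have no such interval and were classed without one. Among those classed as kept, the guide median of miR-1 to control changed sign. It went from −0.0094 to 0.0004 (no filter) and 0.0269 (mean count of at least 100). The log2 ratio of the summed cluster in miR-1 to control, −0.02, became 0.0128 with miRNAs of a mean count of at least 100 used for scaling, −0.0137 with no filter, −0.0612 with total endogenous counts and −0.75 with the induced miRNAs in the total. In miR-122 to control it went from −0.06 to −0.15 (total endogenous), −0.56 (induced miRNAs in the total), −0.0749 (no filter), −0.0423 (at least 100), −0.14 (the 6 listed hairpins alone) and −0.35 (without miR-92a-3p). In miR-1 to miR-122 it went from 0.04 to 0.0931 (total endogenous), −0.19 (induced miRNAs in the total), 0.0612 (no filter), 0.0550 (at least 100), 0.12 (listed hairpins) and 0.32 (without miR-92a-3p).

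The guide median became −0.74, −1.12 and 0.30 (miR-1 to control, then miR-122 to control and miR-1 to miR-122) with the induced miRNAs in the total, and −0.71 and 0.58 in those involving miR-122 with total endogenous counts. By construction another scaling of the same miRNAs shifts all alike, and the guide median minus that of all tested stayed at −0.01, −0.58 and 0.52. A filter also changes the miRNAs tested, and this difference was 0.08, −0.46 and 0.46 with no filter and 0.02, −0.59 and 0.51 at a mean count of at least 100. Members past 1.5-fold in miR-1 to control numbered 10 with the induced total, 1 with no filter or a pseudocount of 5, 0 of 9 at a mean count of at least 100 and 0 of 11 at 2-fold. In miR-122 to control they numbered 8 with the induced total, 3 of 9 at a mean count of at least 100 and 2 at 2-fold, and in miR-1 to miR-122 1 at 2-fold. A mean count of at least 100 leaves out miR-20a-3p and miR-19b-1-5p, with mean counts of 43 and 19.3. Both were past 1.5-fold in the main setting of miR-1 to control and of miR-122 to control. With no filter or with the pseudocount, only the count of miR-1 to control moved. In its main setting miR-20a-3p lay at 1.504-fold, just past the limit, and miR-19b-1-5p at 1.78-fold. The cause of the move was not tested further.

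The cluster's share became 9.51%, 9.12% and 8.10% with the listed hairpins alone, 14.6%, 14.1% and 13.4% without miR-10a-5p, and 7.55% and 8.63% of all counts (miR-1, miR-122). With the listed hairpin alone the guide arm share was 98.2% (control) and 98.9% (miR-1) for mir-19b-1 and 99.46%, 99.44% and 99.35% for mir-92a-1, and the cluster's part of the AUUGCAC family 49.0%, 47.6% and 47.3%. Passenger arms with under 60 counts are limited by depth, and no value has a measure of variation between cultures.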
